A study of Homo sapiens with 16 samples.

Results

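Histone genes encode the small basic proteins around which DNA is wound. They were examined here in 2 human mammary cell lines with and without 2DG (2-deoxy-glucose), which cells take up like glucose but cannot break down through glycolysis. The members are all genes whose symbol in the array's annotation begins with a histone prefix of the current nomenclature (H1-, H2AC, H2BC, H2AZ, H2AJ, H2AX, H3C, H3-3 or H4C) or its older form, each read from the probe set with the highest mean over the 16 arrays. This gave 55 genes of the 19775 genes tested. Of these, 43 are replication-dependent histone genes (6 for H1, 8 for H2A, 14 for H2B, 7 for H3 and 8 for H4), 8 are variants (H1-7, H1-8, H1-10, H2AZ1, H2AZ2, H2AJ, H2AX and H3-3A) and 4 are pseudogenes or an antisense gene (H1-9P, H2AC5P, H4C10P and H1-10-AS1). H3-3B had no probe set that names it alone and was not analysed here as a single gene. In the RefSeq gene table, 42 of the 55 lie on chromosome 6.

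The study compared MCF10A, an immortalised non-tumour mammary epithelial line, with MDA-MB-231, a mesenchymal-like breast cancer line, each as 4 independent replicates (A to D) per condition run in parallel. Cells growing at low confluence received 50 mM 2DG or the same volume of water as vehicle and were harvested after 24 h, which gives 4 groups of 4 arrays: MCF10A vehicle, MCF10A 2DG, MDA-MB-231 vehicle and MDA-MB-231 2DG. All groups had 17.5 mM glucose in the medium. The media otherwise differed by line: MDA-MB-231 had 10% fetal bovine serum and 2 mM glutamine, and MCF10A had 5% horse serum, 1 mM glutamine, insulin, hEGF, cholera toxin and hydrocortisone. Medium and line can therefore not be told apart.

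Replication-dependent histone genes lie in clusters, have no introns in their usual form and are expressed mainly while DNA is being copied. Their usual mRNAs end in a stem-loop bound by SLBP, the stem-loop binding protein, and carry no poly(A) tail, whereas variant histones are made outside S phase too, from mRNAs with a tail. H2AX, whose protein is phosphorylated at DNA breaks, can yield both kinds of end. Labelling for this type of array usually starts from the poly(A) tail, so what such probe sets read of a replication-dependent gene is RNA with a tail or RNA primed inside, and how much of either was present was not measured. Many histone genes are near-identical copies. Of the 55 members, 17 were read from probe sets whose names mark them as not specific to a single transcript. These are called shared here, and the source of a signal within a family is uncertain.

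Values are log2 after RMA normalisation, a scale on which a difference of 1 is a 2-fold difference. Levels of different genes cannot be compared on it. The median gene had a mean level of 7.22, and 16 of the 55 histone genes were at or above it (11 of the 43 replication-dependent genes and 5 of the 8 variants). Changes of the dimmer members are likely to be understated. A gene is said to have risen or fallen when limma's moderated test over all 19775 genes gave a Benjamini-Hochberg adjusted p under 0.05. The p-values measure the spread between replicate cultures. These are bulk samples, in which fewer cells of a kind and less RNA per cell cannot be told apart.

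The arrays had medians between 6.17 and 6.22. Line identity was borne out by the cadherin CDH1 (mean 13.06 in MCF10A vehicle, 4.62 in MDA-MB-231 vehicle) and by ZEB1 (7.75 and 11.29), while SPARC, on the MDA-MB-231 marker list, went the other way (10.91 and 5.55). The actin control, 3' minus 5' probe set, which increases as RNA is degraded or copied incompletely, averaged 0.393 ± 0.067 (SD, n = 4) on the vehicle arrays of MCF10A and 0.55 ± 0.0678 on its 2DG arrays. In MDA-MB-231 it averaged 0.597 ± 0.331 on vehicle and 1.03 ± 0.0714 with 2DG. MDA-MB-231 vehicle replicate B stood apart at 1.09. Where leaving it out ended or made a call named here, the value without it is given, except for SLBP. The 2 leukocyte markers measured did not rise in either line, 1 of 2 endothelial markers rose in MDA-MB-231 and 1 of 4 luminal markers rose in MCF10A. Of 4 fibroblast markers, 2 rose in MCF10A with 2DG, COL1A1 from 9.04 to 11.15 and DCN from 6.88 to 8.65. The summed fibroblast level went from 9.43 to 9.53 on vehicle to between 11.37 and 11.5 with 2DG in MCF10A, and from 8.21 to 8.55 on vehicle to between 8.71 and 8.91 with 2DG in MDA-MB-231, where 2 of the 4 also rose. The part of these values in the histone results was not tested, except where a fit with the actin control is given. Within groups the actin control spread most on the MDA-MB-231 vehicle arrays, through replicate B, so such fits rest largely on that array.

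The stretches upstream of the genes that the results turn on are printed here to show how alike and how unlike these start regions are. They come from RefSeq windows on GRCh38.p14, 5′ to 3′ on the gene's strand, and end at the base before the gene's start. Capitals mark 4 motifs searched on both strands, which do not overlap in these letters: the CCAAT box, the TATA box (TATAAA), the octamer (ATTTGCAT) and a core found in H4 gene promoters (GGTCCG). From the other strand the CCAAT box reads ATTGG, and the octamer reads ATGCAAAT. The first is the whole 245 bases between the starts of H2BC4, on the minus strand, and H2AC6, on the plus strand, which point away from each other. The others are the 150 bases before the start of an H4 gene, an H2B gene, the linker histone gene H1-2, H2BC12, an H2A gene on chromosome 1 and H2AX.
H2AC6 and H2BC4, chr6:26123927-26124171, plus strand: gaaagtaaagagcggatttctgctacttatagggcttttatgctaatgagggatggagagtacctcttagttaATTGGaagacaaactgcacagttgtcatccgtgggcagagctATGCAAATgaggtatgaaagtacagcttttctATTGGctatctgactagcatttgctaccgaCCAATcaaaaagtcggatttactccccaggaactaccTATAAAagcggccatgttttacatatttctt
H4C8, chr6:26285535-26285684, minus strand: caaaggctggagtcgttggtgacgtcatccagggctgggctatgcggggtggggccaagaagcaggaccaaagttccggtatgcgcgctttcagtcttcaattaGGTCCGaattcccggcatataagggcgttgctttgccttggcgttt
H2BC5, chr6:26157971-26158120, plus strand: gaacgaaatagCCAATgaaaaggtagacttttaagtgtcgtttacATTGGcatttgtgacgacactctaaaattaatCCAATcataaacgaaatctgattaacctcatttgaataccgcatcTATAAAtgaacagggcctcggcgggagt
H1-2, chr6:26056471-26056620, minus strand: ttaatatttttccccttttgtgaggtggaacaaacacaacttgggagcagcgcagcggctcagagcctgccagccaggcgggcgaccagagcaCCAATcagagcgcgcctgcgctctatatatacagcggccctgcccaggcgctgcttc
H2BC12, chr6:27146859-27147008, minus strand: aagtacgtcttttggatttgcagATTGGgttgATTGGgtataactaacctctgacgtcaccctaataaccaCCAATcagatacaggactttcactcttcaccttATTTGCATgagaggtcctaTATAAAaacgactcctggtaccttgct
H2AC25, chr1:228457874-228458023, minus strand: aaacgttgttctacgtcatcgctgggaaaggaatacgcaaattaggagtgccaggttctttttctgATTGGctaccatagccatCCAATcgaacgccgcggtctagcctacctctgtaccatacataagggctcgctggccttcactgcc
H2AX, chr11:119095466-119095615, minus strand: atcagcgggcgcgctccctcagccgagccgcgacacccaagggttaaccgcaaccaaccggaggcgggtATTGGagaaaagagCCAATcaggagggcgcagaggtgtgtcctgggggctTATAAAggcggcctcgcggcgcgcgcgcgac

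RefSeq windows of 300 bases (250 before and 50 after the start) were matched for 48 of the 55 members. The octamer was in 16 of the 40 matched replication-dependent windows (40%) against 1.8% of the windows of 27305 genes. It was found in 6 of 8 H2A and 10 of 13 H2B windows and in none of the H1, H3 or H4 windows. The CCAAT box was in 35 of 40 (87.5%, against 35.7% of all windows) and the TATA box in 27 of 40 (67.5%, against 12%). The H4 core was in 6 of 7 H4 windows, against 11.2% of all windows. None of the 8 variant windows held the octamer. A match describes letters and shows no binding.

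With 2DG, most H2B genes and many H2A genes rose in MCF10A, and H4C8 and H1-2 with them, while 4 of 7 H3 genes and the variants H2AX, H2AZ1 and H2AZ2 fell. Of the 55 members, 23 rose (29.0% of all genes tested did) and 10 fell (25.2% of all genes). A rise of at least 1 on the log2 scale was called for 10 members, all of them replication-dependent, against 5.39% of all genes, and a fall of at least 1 for 2 members, against 5.81%. Among the 43 replication-dependent genes, 21 rose and 7 fell, with a median change of 0.15 and a range from -1.48 to 3.555. The median change over all genes was 0.02. The families differed. Of 14 H2B genes, 11 rose and none fell, with a median of 0.74. Of 8 H2A genes, 5 rose and 1 fell (median 0.38). Of 6 H1 genes, 3 rose and 1 fell (0.08). Of 7 H3 genes, 1 rose and 4 fell (-0.365), and of 8 H4 genes, 1 rose and 1 fell (-0.03). Whether the families differ from one another was not tested. Several H2B genes, among them H2BC5, H2BC6, H2BC9 and H2BC12L, were read from shared probe sets, so these counts may not be of separate signals. Of the 11 replication-dependent genes at or above the median level, 9 rose and 2 fell, with a median change of 1.47. In all genes at or above that level, 4045 of 9888 rose and 4026 fell. The level is a mean over all 16 arrays, with the MCF10A 2DG arrays among them, so a gene's own rise helps it pass. H2AC25, for one, passed with means of 8.75 on MCF10A vehicle, 11.18 on MCF10A 2DG, and 6.37 and 6.53 in MDA-MB-231. Counts of histone genes at this level, here and below, are therefore not independent of the rise. Left out in turn, no single array ended 31 of the 33 calls. The rises of H2BC14 and the fall of H3C8 were each lost in some of these fits (H2BC14 without MCF10A vehicle replicate A, B or 2DG replicate B or D, and H3C8 without MCF10A vehicle replicate A, B or D or 2DG replicate A, B or C).

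**Figure D1:**
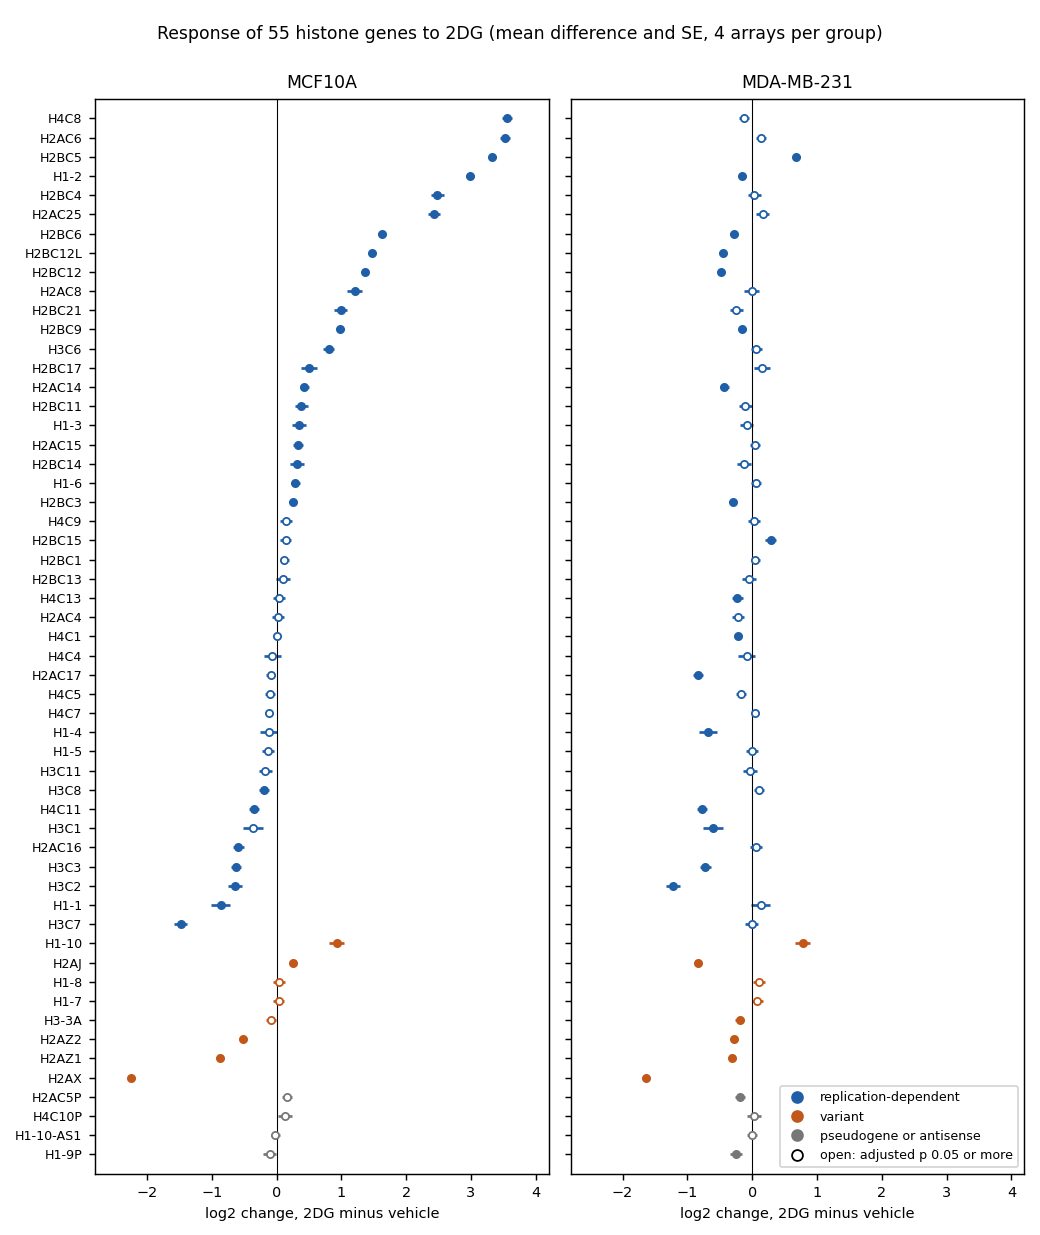
Change in each of the 55 histone genes with 2DG (log2 value, 2DG minus vehicle, mean difference with its SE, 4 arrays per group) in MCF10A and MDA-MB-231. In MCF10A 10 replication-dependent genes lie at 1 or above, led by H4C8 at 3.555, while in MDA-MB-231 none does.

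H4C8 encodes histone H4, the core histone that pairs with H3. Its values were 5.57, 5.14, 5.42 and 5.46 on the MCF10A vehicle arrays (mean 5.40 ± 0.183, SD, n = 4) and 9, 8.87, 9 and 8.94 with 2DG (8.95 ± 0.0618). In MDA-MB-231 they were 6.48, 6.5, 6.58 and 6.45 on vehicle and 6.48, 6.38, 6.26 and 6.39 with 2DG. All 4 MCF10A 2DG arrays lay above the other 12, and the MDA-MB-231 groups overlapped. The rise in MCF10A was 3.555 (SE 0.0739, limma adjusted p = 5.231e-16), and a second probe set of this gene rose by 3.99. The other H4 genes named alone did not rise, and H4C11, at 8.34 ± 0.0883 on vehicle and 7.99 ± 0.122 with 2DG, fell by 0.35 (SE 0.07993, adjusted p = 0.001245).

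H2AC6 and H2BC4 are the divergent pair whose shared start region is printed above. H2AC6, an H2A gene, read 7.92, 7.62, 7.82 and 7.74 on vehicle and 11.3, 11.36, 11.34 and 11.21 with 2DG in MCF10A. In MDA-MB-231 it read 8.7, 9.03, 8.89 and 8.7 on vehicle and 9.07, 8.87, 9.01 and 8.9 with 2DG, so that only the MCF10A groups were separate. The MCF10A rise was 3.53 (SE 0.07813, limma adjusted p = 1.086e-15). H2BC4 rose from 5.54, 5.31, 5.73 and 5.5 to 8.06, 8.09, 7.84 and 8.02, a change of 2.48 (SE 0.1052, adjusted p = 3.105e-12). Divergent pairs were looked for only where both genes are members with a matched window, so pairs with any other gene are not counted. Of the 3 others found, with starts up to 244 bases apart, H2AC14 and H2BC14 both rose (0.43 and 0.31). In H2AC15 and H2BC15 the H2A gene rose (0.33) and the H2B gene changed by 0.14 without passing the test, and in H2AC17 and H2BC17 the H2B gene rose (0.503) and the H2A gene did not (-0.09).

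H2BC5, an H2B gene with a shared probe set, read 8.99, 8.84, 9.08 and 9.03 on MCF10A vehicle arrays and 12.36, 12.26, 12.3 and 12.34 with 2DG. MDA-MB-231 arrays read 9.21, 9.36, 9.3 and 9.16 on vehicle and 9.92, 9.91, 9.98 and 9.94 with 2DG. Neither pair of groups overlapped. The change was 3.33 in MCF10A (SE 0.05294, limma adjusted p = 2.358e-17) and 0.68 in MDA-MB-231 (adjusted p = 9.722e-09). Its other probe set rose by 1.96 in MCF10A and read -0.03 in MDA-MB-231, where it did not pass the test. The rise in MDA-MB-231 therefore rests on the probe set used here, chosen by its mean over all arrays. On vehicle the other one was higher, at 9.02 against 8.98 in MCF10A and 9.68 against 9.26 in MDA-MB-231. With 2DG the one used was higher, at 12.31 against 10.97 in MCF10A and 9.94 against 9.64 in MDA-MB-231. The choice is therefore not independent of the rise, whose size differs between the probe sets. H2BC12, another bright H2B gene, went from 11.24, 11.11, 11.31 and 11.32 to 12.63, 12.56, 12.59 and 12.67 in MCF10A, a rise of 1.37 (SE 0.04484, adjusted p = 1.268e-13). H2BC6 (1.625), H2BC12L (1.47) and H2BC9 (0.985) rose too, each on a shared probe set, so these may not be separate signals.

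Among the linker histones, which bind DNA between nucleosomes, H1-2 moved most. It read 8.43, 8.3, 8.37 and 8.38 on MCF10A vehicle arrays and 11.38, 11.33, 11.4 and 11.3 with 2DG. On MDA-MB-231 arrays it was near the upper of these levels in both conditions, at 10.75, 10.99, 10.78 and 10.66 on vehicle and 10.6, 10.67, 10.71 and 10.6 with 2DG. The MCF10A rise was 2.98 (SE 0.05808, limma adjusted p = 2.387e-16). H1-3 (0.345) and H1-6 (0.29) also rose, both at levels under the median gene's. H1-1 fell by 0.863 (SE 0.1505, adjusted p = 0.0001027), from 6.28, 5.65, 5.26 and 5.79 to 4.87, 4.81, 5.06 and 4.79, values that are below the median level in both groups. H1-4 read 5.62, 5.84, 5.36 and 5.36 on vehicle and 5.28, 5.19, 5.76 and 5.46 with 2DG, groups that overlapped, with a change of -0.12 (adjusted p = 0.4917).

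H2AC25, an H2A gene on chromosome 1 away from the chromosome 6 clusters, rose by 2.43 in MCF10A (SE 0.09685, limma adjusted p = 1.419e-12), from 8.8, 8.74, 8.78 and 8.66 to 11.21, 11.13, 11.21 and 11.16. Its other, dimmer probe set changed by 0.22 (adjusted p = 0.101). H2BC21, an H2B gene also on chromosome 1, read 6.46, 6.63, 6.94 and 6.63 on vehicle and 7.61, 7.74, 7.69 and 7.58 with 2DG, a rise of 0.99 (SE 0.1033, adjusted p = 3.057e-07). H2AC8 rose by 1.21. H2AC16 fell by 0.587 (adjusted p = 3.003e-05), from 4.28, 4.16, 4.49 and 4.41 to 3.72, 3.85, 3.79 and 3.63, both far below the median level.

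Of the 7 H3 genes read alone, 4 fell and 1 rose, while the probe sets that list several H3 genes, given below, did not fall in MCF10A. H3C7 read 5.8, 5.81, 5.54 and 6.14 on MCF10A vehicle arrays and 4.31, 4.3, 4.28 and 4.49 with 2DG, a change of -1.478 (SE 0.09991, limma adjusted p = 1.264e-09). H3C2 fell from 4.9, 4.98, 5.31 and 5.15 to 4.69, 4.13, 4.45 and 4.48, a change of -0.647 (SE 0.1086, adjusted p = 6.827e-05). H3C3 (-0.625) and H3C8 (-0.2) also fell. H3C6 was the exception, with a rise of 0.808 (SE 0.08361, adjusted p = 2.783e-07) and of 1.58 on its other probe set. H3C7, H3C2, H3C3 and H3C6 had levels under the median gene's.

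**Figure D2:**
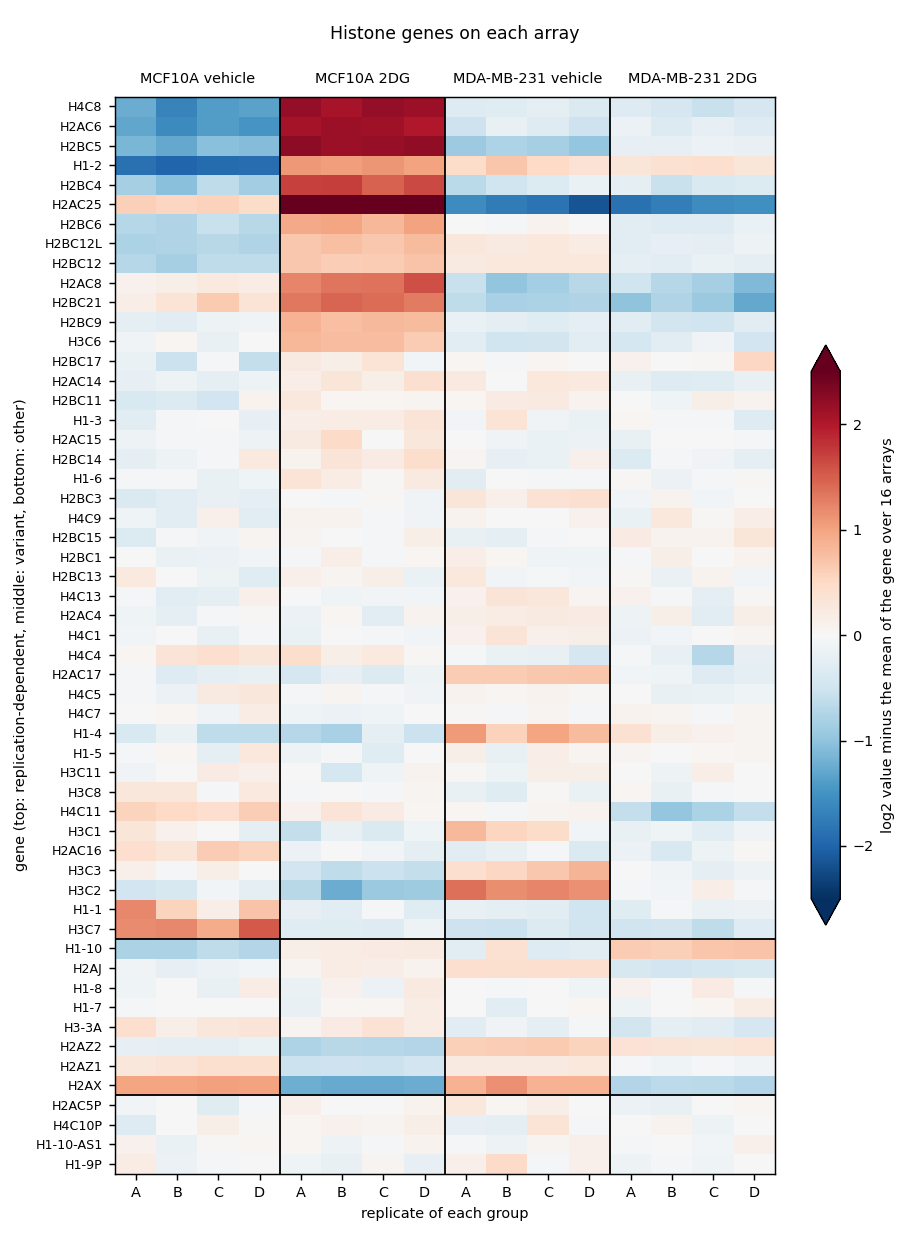
Every histone gene on each of the 16 arrays, as the log2 value minus that gene's mean over the 16 arrays, in the 4 groups, with replication-dependent genes at the top, variants in the middle and other members at the bottom. The upper rows, H4C8 to H2BC9, are highest on all 4 MCF10A 2DG arrays, and colours stop at the ends of the scale, which H2AC25 exceeds.

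Of the 8 variants, 2 rose, 3 fell and 3 did not pass the test in MCF10A. H2AX fell on every array, from 11.6, 11.6, 11.63 and 11.61 to 9.4, 9.35, 9.35 and 9.38, a change of -2.24 (SE 0.05295, limma adjusted p = 2.374e-15). Its 3 other probe sets gave -0.933, -0.44 and 0.065, the last not past the test. They were dimmer, with means of 7.4, 6.7 and 5.67 on vehicle. H2AZ1, a variant found around promoters, fell from 14.16, 14.19, 14.27 and 14.27 to 13.33, 13.36, 13.34 and 13.4, a change of -0.865 (SE 0.03502, adjusted p = 1.746e-12), and its other probe set by 0.98. H2AZ2, its close relative, fell from 11.79, 11.75, 11.78 and 11.83 to 11.23, 11.3, 11.28 and 11.27, by 0.517 (SE 0.03288, adjusted p = 5.631e-10). Its other probe sets gave -1.54, -1.43 and 0.13. H1-10, a replication-independent linker histone, rose from 9.2, 9.21, 9.37 and 9.27 to 10.15, 10.19, 10.2 and 10.23, by 0.93 (SE 0.1127, adjusted p = 1.858e-06).

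H2AJ, a replication-independent H2A variant, rose slightly in MCF10A, from 10.12, 10.0, 10.07 and 10.14 to 10.28, 10.4, 10.38 and 10.29 (0.255, SE 0.04026, limma adjusted p = 3.628e-05). Its 3 other probe sets read 0.308, -0.035 and 0.053, the last 2 not past the test. H3-3A, one of the 2 genes for H3.3, the replication-independent H3, read 6.99, 6.72, 6.85 and 6.9 on vehicle and 6.65, 6.78, 6.94 and 6.76 with 2DG, groups that overlapped. This is a dim probe set, and the brighter ones that list H3-3A with H3-3B, most of which fell, are given below. H1-7 and H1-8, linker histones of germ cells, read 0.035 and 0.037 and did not pass the test. None of the 4 pseudogenes and antisense genes passed it in this line, with changes between -0.11 and 0.16.

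**Figure D3:**
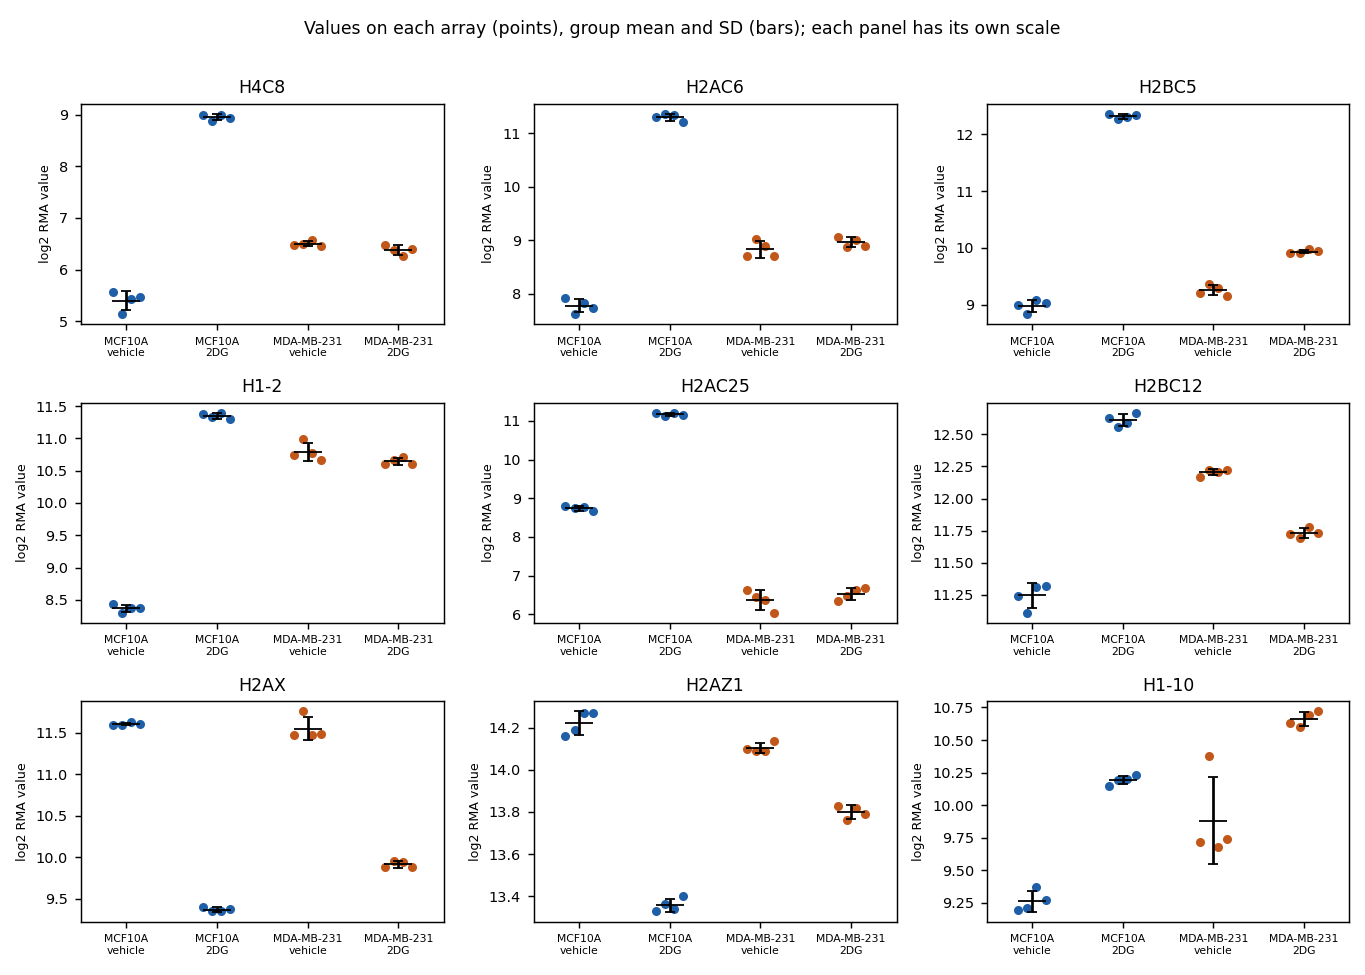
Values on each array (points) with the group mean and SD (bars) for 9 histone genes, each panel with its own log2 scale. H4C8, H2AC6, H2BC5, H1-2, H2AC25 and H2BC12 are highest on the MCF10A 2DG arrays, H2AX and H2AZ1 are lower with 2DG in both lines, and for H1-10 the MDA-MB-231 vehicle replicate B lies apart at 10.38.

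In MDA-MB-231 the histone genes showed small falls and few rises with 2DG. Of the 55 members, 22 fell (25.4% of all genes tested did) and 3 rose (25.5% of all genes). Falls of at least 1 were called for 2 members, H3C2 and H2AX, against 4.73% of all genes, and rises of at least 1 for 0 members, against 3.04%, as the largest change upwards was 0.78. Of the replication-dependent genes, 15 fell and 2 rose, with a median change of -0.085 and a range from -1.23 to 0.68, and the median over all genes was 0.03. By family, 5 of 14 H2B genes, 3 of 7 H3 genes, 3 of 8 H4 genes, 2 of 8 H2A genes and 2 of 6 H1 genes fell. Of the variants, 5 of 8 fell and 1 rose, and of the 4 pseudogenes and antisense genes, 2 fell (H1-9P by 0.248 and H2AC5P by 0.187, the latter -0.118 and not past the test with the actin control as a covariate). Left out in turn, no single array ended 19 of the 25 calls, and 6 were lost in some fits. H2AC5P was lost in 9 of these 16 fits, H3-3A in 8, and H1-2 and H2BC9 in 7 each. Without MDA-MB-231 vehicle replicate B, 17 members fell. The calls of H1-2 (-0.085, limma adjusted p = 0.139), H2BC9 (-0.148, adjusted p = 0.0745) and H3-3A were lost. Those of H4C13 (-0.188, adjusted p = 0.112) and H1-9P (-0.148, adjusted p = 0.136) were lost too. With the actin control as a covariate, 18 fell and 3 rose.

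H3C2 fell most among the replication-dependent genes in this line, from 6.76, 6.54, 6.6 and 6.51 to 5.33, 5.3, 5.55 and 5.33. The groups were separate, and the change was -1.225 (SE 0.1086, limma adjusted p = 4.829e-08). H2AC17 fell from 6.81, 6.82, 6.85 and 6.87 to 6.12, 6.08, 5.87 and 5.95 (-0.833, SE 0.07427, adjusted p = 5.247e-08). H4C11 (-0.775), H3C3 (-0.72), H1-4 (-0.683) and H3C1 (-0.603) fell too. H1-4 read 7.07, 6.58, 6.98 and 6.79 on vehicle and 6.37, 6.14, 6.11 and 6.07 with 2DG, and with the actin control as a covariate its fall was 0.453 and did not pass (adjusted p = 0.0557). The bright H2B gene H2BC12 fell from 12.17, 12.22, 12.21 and 12.22 to 11.72, 11.69, 11.78 and 11.73, by 0.475 (adjusted p = 1.055e-07), the opposite direction from MCF10A. H2BC12L (-0.45), H2AC14 (-0.43), H2BC6 (-0.283) and H2BC3 (-0.303) also rose in MCF10A and fell here, and with the actin control as a covariate H2BC3 read -0.168 and did not pass (adjusted p = 0.0509). Of these, H2BC12L, H2AC14 and H2BC6 were read from shared probe sets.

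H2BC5, H2BC15 and H1-10 were the 3 that rose in MDA-MB-231, and without vehicle replicate B H2AC6 passed the test too (0.199, adjusted p = 0.0349). H2BC15, a dim H2B gene, read 5.3, 5.23, 5.45 and 5.49 on vehicle and 5.69, 5.57, 5.56 and 5.79 with 2DG (0.285, SE 0.08382, limma adjusted p = 0.008934). In MCF10A its groups, at 5.13, 5.44, 5.4 and 5.55 and at 5.54, 5.48, 5.45 and 5.62, overlapped. H1-10 read 9.72, 10.38, 9.68 and 9.74 on vehicle and 10.63, 10.6, 10.69 and 10.72 with 2DG, a rise of 0.78 (adjusted p = 1.576e-05) that was 0.947 without vehicle replicate B and 0.393 with the actin control as a covariate.

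H2AX fell in this line as well, from 11.48, 11.76, 11.48 and 11.49 to 9.88, 9.96, 9.94 and 9.88, a change of -1.638 (SE 0.05295, limma adjusted p = 2.246e-13). The other probe sets gave -0.607, -0.49 and 0.035. H2AZ1 fell from 14.1, 14.09, 14.09 and 14.14 to 13.83, 13.76, 13.82 and 13.79, by 0.305 (adjusted p = 1.132e-06). H2AZ2 fell from 12.6, 12.61, 12.66 and 12.56 to 12.35, 12.31, 12.3 and 12.34, by 0.283 (adjusted p = 1.336e-06), and its other probe sets gave -1.333, -1.53 and -0.335. H2AJ fell from 10.63, 10.62, 10.64 and 10.63 to 9.82, 9.74, 9.78 and 9.84, by 0.835 (SE 0.04026, adjusted p = 2.429e-11). The 2 H2AJ probe sets with the larger values are shared. The other 2 gave -0.1 and -0.077 and did not pass the test. H3-3A read 6.3, 6.48, 6.35 and 6.55 on vehicle and 6.11, 6.32, 6.31 and 6.16 with 2DG. The groups overlapped, and the fall of 0.195 (adjusted p = 0.04228) was lost without vehicle replicate B (-0.175, adjusted p = 0.1).

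The difference between the 2 responses was tested directly, as the change in MDA-MB-231 minus that in MCF10A. It was below 0 for 26 histone genes (23.6% of all genes tested) and above 0 for 7 (22.3%). It was at or below -1 for 13 members, against 5.15% of all genes, and at or above 1 for 1 member, H3C7, against 3.72%. For H4C8 it was -3.68 (SE 0.1045, limma adjusted p = 1.451e-13), for H2AC6 -3.395 (adjusted p = 7.214e-13), for H1-2 -3.133 (adjusted p = 7.074e-14) and for H2BC5 -2.65 (adjusted p = 1.399e-13). Of all genes at or above the median level, 35% had a difference below 0 and 36.2% above 0. Of the 11 replication-dependent genes at or above the median level, 10 had a difference below 0, with a median difference over the 11 of -1.908. For H4C11, one of the 10, it was -0.425, because its fall was larger in MDA-MB-231. The calls of H2AC15 (-0.285, adjusted p = 0.0673), H3C8 (0.262, adjusted p = 0.0623) and H4C1 (-0.171, adjusted p = 0.0862) were lost without MDA-MB-231 vehicle replicate B. Over the 8 variants the split was 3 above 0 and 1 below. H2AX (0.602, adjusted p = 4.043e-06) and H2AZ1 (0.56) fell less in MDA-MB-231. H2AJ (-1.09, adjusted p = 1.527e-10) moved in opposite directions on the probe set used here. Without shared probe sets the H2AJ difference was -0.13 and did not pass the test (adjusted p = 0.574). For H3C7, H1-1 and H2AC16, which fell in MCF10A, the differences were 1.47, 0.993 and 0.643. On MDA-MB-231 vehicle arrays H3C7 read 4.1, 4.07, 4.26 and 4.12, H1-1 read 4.89, 4.86, 4.82 and 4.59, and H2AC16 read 3.59, 3.68, 3.84 and 3.51. Each of these means was below that of the MCF10A 2DG arrays.

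On vehicle, 24 histone genes were higher in MDA-MB-231 than in MCF10A (29.2% of all genes tested) and 12 were lower (26.8%). By at least 1, 5 were higher, against 6.76% of all genes, and 3 were lower, against 6.19%. H1-2 was higher by 2.425, H3C2 by 1.517 (limma adjusted p = 2.487e-09), H1-4 by 1.31 and H4C8 by 1.105. Lower in MDA-MB-231 were H2AC25 (-2.375, adjusted p = 1.701e-12), H3C7 (-1.685) and H2BC21 (-1.13). MDA-MB-231 read 6.63, 6.45, 6.36 and 6.04 for H2AC25 on vehicle and 6.35, 6.47, 6.63 and 6.67 with 2DG, all under every MCF10A array. H2BC21 read 5.65, 5.47, 5.49 and 5.54 on vehicle and 5.28, 5.53, 5.37 and 5.0 with 2DG. The other, dimmer H2AC25 probe set differed by -0.18 between the lines on vehicle and did not pass the test (adjusted p = 0.184). Of the variants, H2AZ2 was higher in MDA-MB-231 (0.82), while H2AX did not pass the test (-0.06) and passed it without vehicle replicate B (-0.127, adjusted p = 0.00304).

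Under 2DG, 20 of the 43 replication-dependent genes were lower in MDA-MB-231 than in MCF10A and 4 were higher. Of the 55 members, 22 were lower in MDA-MB-231 (28.8% of all genes tested) and 8 were higher (30.7%). Lower by at least 1 were 10 members, all of them replication-dependent, against 9.22% of all genes, and 1 was higher by as much (H2AZ2), against 8.68%. The differences were -4.648 for H2AC25 (limma adjusted p = 2.22e-16), -2.575 for H4C8, -2.378 for H2BC5, -2.36 for H2BC21 (adjusted p = 2.858e-12), -2.34 for H2AC6, -2.165 for H2AC8 and -2.025 for H2BC4. On their other probe sets H2AC25 gave -0.363 and H2BC5 gave -1.33. Of the 11 replication-dependent genes at or above the median level, 10 were lower and none higher, against 40.4% and 45.2% of all genes at that level. Among the variants, H2AZ2 (1.055), H2AX (0.545), H1-10 (0.468) and H2AZ1 (0.443) were higher in MDA-MB-231 and H3-3A (-0.558) and H2AJ (-0.543) were lower. With the actin control as a covariate, H1-10 read 0.038 (limma adjusted p = 0.741). That fit rests largely on MDA-MB-231 vehicle replicate B, without which H1-10 was 0.468 (adjusted p = 8.15e-08). The comparisons of lines and those of treatment use the same arrays, so they do not support one another.

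Probe sets that list several histone genes cannot be assigned to one of them. They were fitted in an added fit over all probe sets. Of the 28, 11 rose and 10 fell in MCF10A, where 24.6% of the 54613 probe sets in that fit rose and 21.4% fell. In MDA-MB-231, 0 rose and 19 fell, against 22.8% and 20.9%. The 3 that list a pair of near-identical H2A genes on chromosome 1 rose by 2.68, 2.76 and 0.635 in MCF10A and read -0.135, 0.025 and 0.107 in MDA-MB-231. Of the 5 that list H2B genes, 4 rose and 1 fell in MCF10A, between -1.01 and 3.1. A bright probe set that lists 14 H4 genes fell by 1.448 in MCF10A, where the mean with 2DG was 11.62, and by 0.602 in MDA-MB-231, the opposite direction from H4C8 in MCF10A. Another that lists the same number of H4 genes rose by 0.63 in MCF10A and read -0.597 in MDA-MB-231. Of all 6 that list H4 genes, 1 rose, 2 fell and 3 did not pass the test in MCF10A. The 2 that list H3 genes only did not pass it there (0.175 and -0.05), and read -1.462, a fall, and -0.005 in MDA-MB-231. The 2 that list H2A and H3 genes together rose in MCF10A (0.817 and 1.092). Of the 8 that list H3.3 genes, 6 fell in MCF10A, where changes ran from -0.998 to -0.045. All 8 fell in MDA-MB-231, with changes from -1.458 to -0.228. Their means on MCF10A vehicle arrays ran from 10.3 to 14.56, against 6.86 for the probe set that names H3-3A alone, so that probe set does not stand for H3.3.

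The length of the RefSeq gene separated some of the risers, with a limit of 1000 bases chosen after the values were seen. Most replication-dependent genes span only the short stem-loop mRNA, at 386 to 797 bases. H2BC21, H3C6, H2BC12, H2BC4 and H2BC5 span 2224 to 13229 bases, because RefSeq lists longer transcripts for them. All 5 of these rose in MCF10A, with a median of 1.37. Of the 38 shorter genes, 16 rose and 7 fell, with a median of 0.109, and these include H4C8, H2AC6, H1-2 and H2AC25. Of the 20 replication-dependent genes with a window that rose in MCF10A, 12 held the octamer, against 4 of the 20 that did not rise. Within H2A and H2B genes alone it was 12 of 15 (80%) against 4 of 6 (66.7%). Neither count was tested.

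Genes that act on histone RNA and protein were described from lists chosen with earlier results of these data known. Beside their counts stand the shares of all genes given above (29.0% rose and 25.2% fell in MCF10A, 25.5% and 25.4% in MDA-MB-231) and those of genes at or above the median level (40.9% and 40.7% in MCF10A, 37.5% and 41.4% in MDA-MB-231). SLBP read 12.43, 12.47, 12.47 and 12.37 on MCF10A vehicle arrays and 11.38, 11.37, 11.33 and 11.35 with 2DG, a change of -1.077 (SE 0.03368, limma adjusted p = 6.926e-14). In MDA-MB-231 it fell from 12.53, 12.47, 12.52 and 12.49 to 11.53, 11.51, 11.58 and 11.58, by 0.953 (adjusted p = 6.159e-13). The difference between the lines was 0.125 (adjusted p = 0.04226), a call that was lost in several fits with an array left out, among them the one without MDA-MB-231 vehicle replicate B. Of the 23 measured genes for histone gene transcription and 3' end processing, 5 rose and 16 fell in MCF10A (21.7% and 69.6%, median -0.342) and 8 rose and 11 fell in MDA-MB-231 (34.8% and 47.8%, median -0.05). TUT7, which adds uridines to histone mRNA tails during decay, rose by 1.76 and 1.25, though in MDA-MB-231 it read -0.438 without shared probe sets. HINFP, an activator of H4 genes, rose by 1.24 and 0.895. CASP8AP2, a cofactor of histone gene expression, fell (-1.047 and -1.262), as did CPSF3, the nuclease that cuts histone pre-mRNA (-1.002 and -1.433). NCBP1, of the cap-binding complex, fell by 1.252 in MCF10A.

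Of the 37 measured histone chaperones and assembly factors, 25 fell (67.6%) and 6 rose in MCF10A (median -0.568) and 26 fell (70.3%) and 8 rose in MDA-MB-231 (median -0.418), where 25.2% and 25.4% of all genes fell. HJURP and OIP5, which load the centromeric variant CENPA, fell in MCF10A (-3.735 and -2.958), as did ASF1B, an H3 and H4 chaperone (-2.787). ANP32E, a chaperone that removes H2A.Z, fell in both lines (-2.565 in MCF10A and -2.572 in MDA-MB-231). Of the variants outside the prefix rule, CENPA (-2.142 and -1.325) and MACROH2A1 (-0.775 and -0.495) fell in both lines, while MACROH2A2 fell by 0.585 in MCF10A and rose by 0.357 in MDA-MB-231. DNA synthesis genes, whose activity normally accompanies histone production, fell in 21 of 22 cases in MCF10A (95.5%, median -1.839) and in 22 of 22 in MDA-MB-231 (median -1.125), against the same shares of all genes. RRM2, a ribonucleotide reductase subunit, fell in both lines (-5.88 and -2.012), as did the polymerase subunits POLE2 (-5.335 and -2.272) and PRIM1 (-3.248 and -1.785). Their part in the histone values was not tested.

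**Figure D4:**
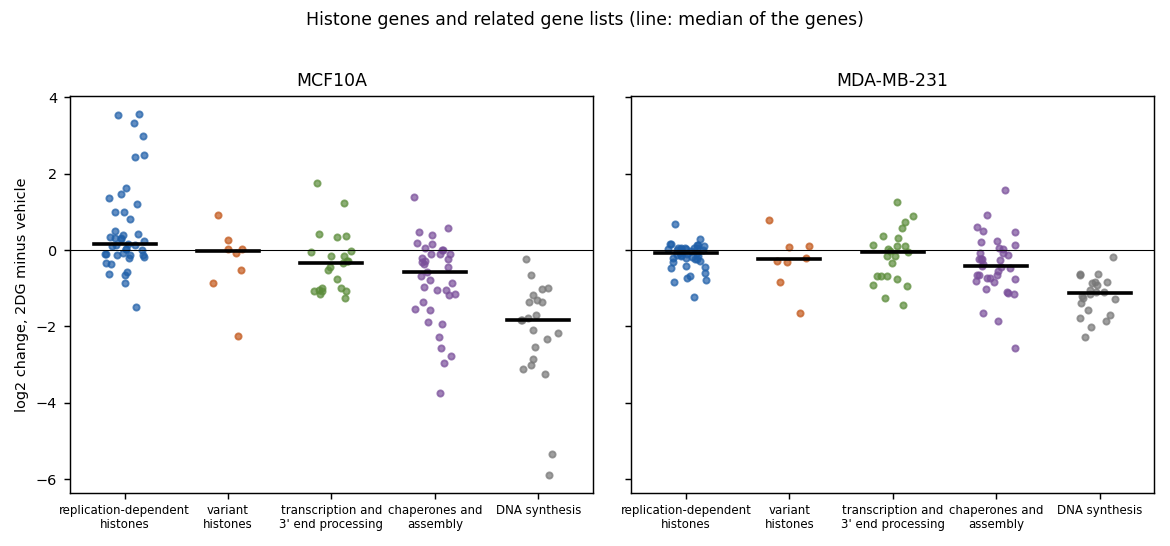
Change with 2DG (log2 value, 2DG minus vehicle) of each gene (points) in the histone classes and in 3 related lists, with a line at the median of the genes. In MCF10A the replication-dependent histones reach 3.555 with a median of 0.15, and the DNA synthesis genes have a median of -1.839.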

How the data were processed

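RNA from the 16 cultures was labelled with a 3' IVT kit and hybridised to 1-colour arrays, per the labels. The authors deposited log2 values after RMA, per the submitters' processing notes. The RMA version and whether all arrays were normalised jointly are not given in the sources used here. In all, 54675 probe sets were deposited, 62 of them controls. Those with 1 gene in the platform annotation (41091) were reduced to the one with the highest mean per gene, which gave 19775 genes. Symbols were checked against the RefSeq gene table, where 55 of 55 histone members were found. A model of 4 group means was fitted with limma 3.58.1 (R 4.3.3, lmFit and eBayes), with Benjamini-Hochberg adjustment over all genes and a threshold of 0.05. The fit was tested on simulated data. No filter on dim genes was used. Alternatives covered the probe set, shared and dim probe sets, scaling, the variance prior, the replicate letter, the actin control, the arrays in the fit and each array left out. No 2 arrays of a group were copies: in all 24 pairs at least 96.4% of probe sets differed. The members and gene lists were chosen with earlier results of these data known. All 16 arrays were in the main fit. Full array values were given for the 3 largest called rises and falls per comparison and for genes fixed by name, and H2BC4, H2AC17 and H4C11 were added after their values were seen. From the other lists, the 3 called genes with the largest change per line were named. The number of arrays limits the precision.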

Additional observations from a re-analysis of the deposited data

Results flagged for a closer look

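In 12 of 220 groups of 4 arrays, 1 array lay far from the other 3, where chance gives about 5%. MDA-MB-231 vehicle replicate B was that array in 4: H1-10 read 10.38 there (others 9.68 to 9.74), H1-7 6.34 (6.61 to 6.65), H2AC14 8.51 (8.74 to 8.78) and H2AX 11.76 (11.48 to 11.49). On MCF10A 2DG arrays, H1-3 read 6.79 in replicate D (6.63 to 6.65), H2BC11 5.36 in A (5.13 to 5.15) and H3C7 4.49 in D (4.28 to 4.31). H3C8 read 7.23 in MCF10A vehicle C (7.5 to 7.54). On MDA-MB-231 vehicle arrays, H1-8 read 5.83 in D (5.92 to 5.93) and H2BC13 5.38 in A (5.04 to 5.08). On MDA-MB-231 2DG arrays, H3C2 read 5.55 in C (5.3 to 5.33) and H4C7 5.42 in C (5.52 to 5.53).

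The response to 2DG differed between the lines by limma's test of the difference (MDA-MB-231 minus MCF10A, log2) in these histone genes. Strongly negative differences were those of H4C8 (-3.68), H2AC6 (-3.395), H1-2 (-3.133), H2BC5 (-2.65), H2BC4 (-2.447), H2AC25 (-2.273), H2BC12L (-1.922), H2BC6 (-1.908), H2BC12 (-1.842), H2BC21 (-1.232), H2AC8 (-1.215), H2BC9 (-1.135) and H2AJ (-1.09). Smaller negative differences were those of H2AC14 (-0.855), H3C6 (-0.745), H2AC17 (-0.743), H3C2 (-0.577), H1-4 (-0.56), H2BC3 (-0.55), H2BC11 (-0.49), H2BC14 (-0.442), H1-3 (-0.43), H4C11 (-0.425), H2AC5P (-0.347), H2AC15 (-0.288) and H4C1 (-0.223). Positive differences were those of H2AZ2 (0.235), H3C8 (0.31), H2AZ1 (0.56), H2AX (0.602), H2AC16 (0.643), H1-1 (0.993) and H3C7 (1.47). Without MDA-MB-231 vehicle replicate B the calls of H2AC15 (-0.285), H3C8 (0.262) and H4C1 (-0.171) were lost. With the actin control as a covariate those of H1-4 (-0.414), H2AC15 (-0.277) and H2BC14 (-0.399) were lost. Without shared probe sets the call of H2AJ (-0.13) was lost too.

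Among the named genes of the other lists, the difference was negative for TUT7 (-0.51), CPSF3 (-0.43), HINFP (-0.345) and CASP8AP2 (-0.215). It was positive for SLBP (0.125), POLA1 (0.23), MACROH2A1 (0.28), CENPA (0.817), ASF1B (0.918), NCBP1 (0.92), MACROH2A2 (0.942), PRIM1 (1.463), HJURP (2.085), OIP5 (2.12), POLE2 (3.063) and RRM2 (3.868).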

How the results depend on the processing

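Counts of called histone genes stayed within 1.5 times the reported count under every scaling, variance prior, actin control, probe set mean and 2-group fit run, and in the fit over every probe set, which was chosen after seeing the data. Fewer genes were tested without shared probe sets (42 members) and without dim genes (16), and counts fell. Without shared probe sets, 14 rose and 6 fell in MCF10A, 1 rose and 13 fell in MDA-MB-231, 14 differences of response were below 0, 15 genes were higher in MDA-MB-231 on vehicle, and under 2DG 4 were higher and 13 lower. Without dim genes, 11 rose and 5 fell in MCF10A, 11 fell in MDA-MB-231, 4 differences were above and 11 below 0, 10 genes were higher and 4 lower in MDA-MB-231 on vehicle, and 4 higher and 11 lower under 2DG. With each array left out, the counts ranged from 22 to 24 (rose, MCF10A), 9 to 12 (fell), 3 to 4 (rose, MDA-MB-231), 17 to 23 (fell), 6 to 8 and 22 to 26 (differences above and below 0), 21 to 25 and 12 to 13 (higher and lower on vehicle), and 7 to 8 and 21 to 23 (under 2DG).

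Values that reversed, the cause of which was not tested, were these. Without shared probe sets, TUT7 read -0.438 in MDA-MB-231, the difference of response was -0.13 for NCBP1 and 0.18 for CASP8AP2, and H2AJ was -0.15 between lines on vehicle. With the mean of all probe sets, the difference was -0.031 for H2AZ2 and 0.312 for ANP32E.

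The labels give the groups the same replicate letters. Same-letter arrays deviated from their group means with correlations between -0.0992 and 0.0877, small values that give no clear sign of pairing by letter. Arrays of different letters were not set beside them, so pairing is not excluded. With the letter as a block, 23 members rose and 9 fell in MCF10A, and 3 rose and 19 fell in MDA-MB-231. Dim members and shared probe sets limit what can be told of single histone genes.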
